A study of Drosophila melanogaster with 4 samples.

Results

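GAGA factor (GAF), the zinc-finger protein encoded by the fly gene Trl, was mapped by ChIP-seq (sequencing of immunoprecipitated chromatin) in whole Drosophila melanogaster embryos. The regions described here are the GAF clusters that lie near the centromere ends of 4 assembled chromosome arms. They were chosen from the authors' combined list of enriched regions, the clusters, as those with a score above 0, a width below 5000 bp and a midpoint within 2 Mb of the centromere end. That end is the last base of 2L, 3L and X, and the first base of 3R, in FlyBase release 5. The rule gave 311 clusters out of 6474 enriched clusters in the combined list, of which 83 lay on 2L, 56 on 3L, 61 on X and 111 on 3R. Because the rule used position, width and the sign of the score, the number of clusters in the combined list is given as a description. The 4405 clusters under 5000 bp on the rest of the same arms are the comparison.

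The GAF ChIP group has 2 replicates and the input group, chromatin sequenced without immunoprecipitation, has 2 libraries. All were wild-type Oregon-R (Oregon-R-modENCODE) embryos aged 14 to 16 hours. The embryos were crosslinked whole, so a cluster averages over all cell types present. Whether the replicates are separate collections of embryos is not in the labels, and their spread may therefore be technical only. The depth of sequencing is unknown because the lists hold no counts of reads, and neither input was analysed here.

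GAF binds GA-rich DNA at many promoters and regulatory elements, where it is known for keeping nucleosomes clear and for pausing of RNA polymerase. Mutations in Trl enhance position-effect variegation, the silencing of genes placed beside heterochromatin, and GAF has been seen on GA-rich satellite repeats of mitotic chromosomes. Towards the centromere, each arm of the assembly passes from gene-rich euchromatin into repeat-rich pericentric heterochromatin. Reads from repeated DNA are hard to place at a single position, and how much of each end could be aligned uniquely is not recorded in the files. No genome or gene annotation of release 5 was used here, so clusters are named by position and no sequence or gene is given for them.

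The centromere ends of 2L, 3L and X carried fewer GAF clusters than the rest of those arms in both replicates, whereas the end of 3R carried slightly more. Taking the 4 ends together and applying the same rule to each replicate's own list, replicate 1 had 31.4 clusters per Mb at the ends and 43.9 per Mb on the rest of the arms. Replicate 2 had 30.5 per Mb at the ends and 44.2 per Mb on the rest. The means were 30.9 ± 0.619 per Mb at the ends and 44.0 ± 0.205 per Mb on the rest (SD, n = 2 each). The difference of -13.1 ± 0.823 per Mb was larger than the spread between replicates and had the same sign in both. An exact sign-flip permutation test over 2 replicates cannot give a two-sided p below 0.5, and it gave 0.5. The combined list had 38.9 per Mb at the ends and 49.0 per Mb on the rest.

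The shortfall was deepest on 3L and X. On 3L, replicates 1 and 2 had 43 and 35 clusters in the last 2 Mb, which is 21.5 and 17.5 per Mb, against 44.3 and 45.3 per Mb on the rest of the arm. On X they had 52 and 49 clusters, which is 26.0 and 24.5 per Mb, against 51.2 and 49.5 per Mb on the rest. The ends of these arms thus held between 0.386 and 0.508 times the density of the rest of the arm, and the replicates' ranges for end and rest did not overlap on either arm. On 2L the end had 34.0 and 32.0 per Mb, against 37.1 and 38.4 per Mb on the rest, a difference of -4.74 ± 2.29 per Mb (SD, n = 2). With a distance limit of 1 Mb this 2L difference was -18.6 per Mb. On 3R the end had 44.0 and 48.0 per Mb, against 43.2 and 43.7 per Mb on the rest. The 3R difference of 2.57 ± 2.50 per Mb was about as large as its own spread between replicates. It turned to -3.35 per Mb when clusters below the median score of each list were dropped.

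Each arm was also divided into windows of 2 Mb counted from the centromere end. On 3L the end window was the lowest of 12 in each of the 3 lists. With 56 combined clusters it stood below the other 11 windows, which held from 60 to 120 with a median of 103. On X the end window was the lowest of 11 in all 3 lists, with 61 combined clusters against 85 to 137 in the others and a median of 121. The end of 2L was unexceptional in the combined list, with 83 clusters against a median of 83.5 in the other windows. In replicate 1 its 68 clusters ranked 3 from the lowest of 11, with 1 tie. In replicate 2 its 64 clusters were the fewest of the arm, against 65 to 95 elsewhere. On 3R the end window was among the fullest in the combined list, with 111 clusters against 63 to 118 in the others, and it ranked 5 from the lowest of 13 in replicate 1 and 9 in replicate 2.

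**Figure D1:**
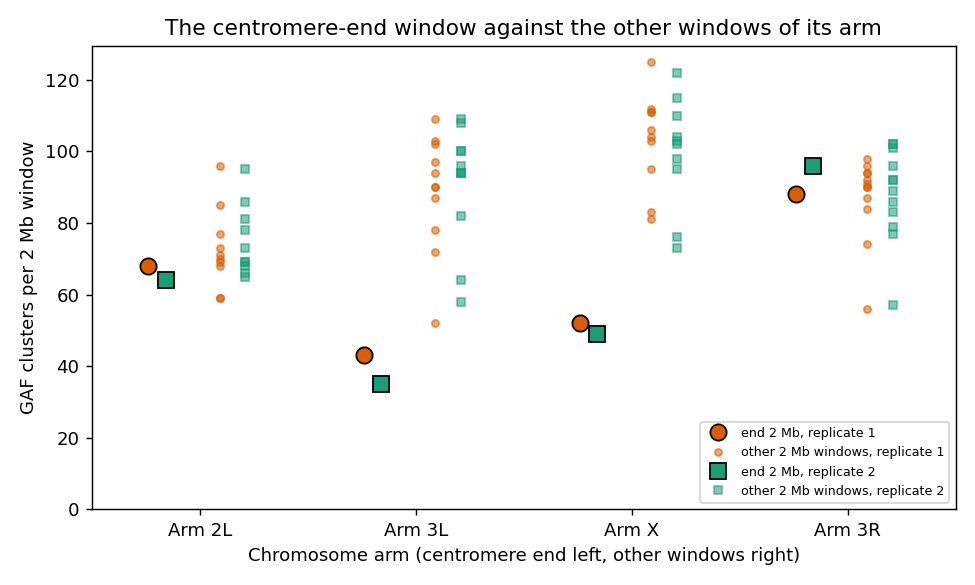
Number of GAF clusters under 5000 bp per window of 2 Mb (vertical axis) on each arm, with the centromere-end window as the large symbol on the left and every other full window of the arm as small symbols on the right, circles for replicate 1 and squares for replicate 2. The end windows of 3L (43 and 35 clusters) and X (52 and 49) lie below all other windows of their arms, and the end window of 3R (88 and 96) lies among the others.

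Pooled over the 4 arms, the 2 Mb at the telomere ends were not sparse. This comparison was added after the data were seen. The telomere ends held 47.6 ± 0.530 clusters per Mb in the replicates (SD, n = 2), which is above the 44.0 per Mb found on all of the arms outside the centromere ends. The heterochromatin scaffolds that the assembly assigns to these arms (2LHet, 3LHet, XHet and 3RHet) together held 8.32 ± 0.250 per Mb (SD, n = 2). The centromere ends, at 30.9 ± 0.619 per Mb, lay between them, and all of these gaps were larger than the replicate SDs. The arms differed: in both replicates the telomere ends of X (46.5 and 48.5 per Mb) and 3R (41.0 and 42.5 per Mb) were below the rest of their own arms. On 3R the centromere end, at 44.0 and 48.0 per Mb, was also denser than the telomere end.

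Within the 2 Mb, clusters thinned out towards the centromere on 2L and 3L. On 2L the combined list had 25 clusters in the innermost 1 Mb and 58 in the next, with 20 and 48 in replicate 1 and 19 and 45 in replicate 2. On 3L it had 18 in the innermost 1 Mb and 38 in the next, with 10 and 33 in replicate 1 and 11 and 24 in replicate 2. Beyond the limit, from 2 to 3 Mb, these arms had 44 and 38 combined clusters, and from 3 to 4 Mb they had 42 and 50. The innermost 1 Mb was therefore the emptiest of the 4 successive bands on both arms, in all 3 lists.

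X was sparse over both bands of the 2 Mb, most so in the innermost, and filled beyond them. It had 26 combined clusters in the innermost 1 Mb, 35 in the next, 59 from 2 to 3 Mb and 63 from 3 to 4 Mb. Replicate 1 had 21, 31, 53 and 58 in the same bands and replicate 2 had 21, 28, 52 and 50. The innermost 1 Mb was thus the emptiest of the 4 bands on X too, in all 3 lists. The step in density on X thus fell close to the 2 Mb limit of the rule. On 3R the 4 bands held 57, 54, 53 and 47 combined clusters, with 45, 43, 48 and 44 in replicate 1 and 46, 50, 44 and 45 in replicate 2, so there was no thinning towards the centromere.

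Steps of 200 kb resolved these profiles further. On 2L the combined counts from the end outwards were 5, 2, 6, 5, 7, 10, 11, 12, 13 and 12, and on 3L they were 4, 3, 2, 4, 5, 3, 5, 9, 11 and 10. Over the 10 steps, Spearman's rho of combined count with distance was 0.939 on 2L and 0.795 on 3L. In the replicates it was 0.856 and 0.844 on 2L, and 0.894 and 0.787 on 3L. These are descriptions of neighbouring steps from the same libraries, and no p is attached to them. In the combined list the gradient on 2L was gradual. On 3L its counts stayed at 5 or fewer over the innermost 1.4 Mb and rose to 9 or more beyond it. In the replicates the 2L profile was broken by a dip to 5 clusters each at 1.4 to 1.6 Mb. The steps on either side held 11 and 12 (1.2 to 1.4 Mb) and 12 and 12 (1.6 to 1.8 Mb). Of the 12 combined clusters at 1.4 to 1.6 Mb, 7 were in neither replicate.

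On X the combined counts were 7, 6, 8, 1, 4, 4, 11, 9, 4 and 7, with a rho of 0.111. In replicates 1 and 2 the rho on X was 0.309 and 0.191. In steps of 500 kb it was 0.600 in the combined list and 0.800 and 0.738 in the replicates. A near-empty step from 600 to 800 kb, with 1 cluster in every list, parted the innermost group from the outer one. On 3R the combined counts by 200 kb were 17, 13, 10, 11, 6, 13, 8, 18, 7 and 8, with a rho of -0.390. The innermost step was the second fullest of the 10. The replicates had 13 clusters each in that step on 3R, against 3 and 3 on 2L, 1 and 1 on 3L, and 2 and 4 on X. The innermost 200 kb of 3R thus held at least 3 times as many clusters as that of any other of the 4 arms, in both replicates.

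**Figure D2:**
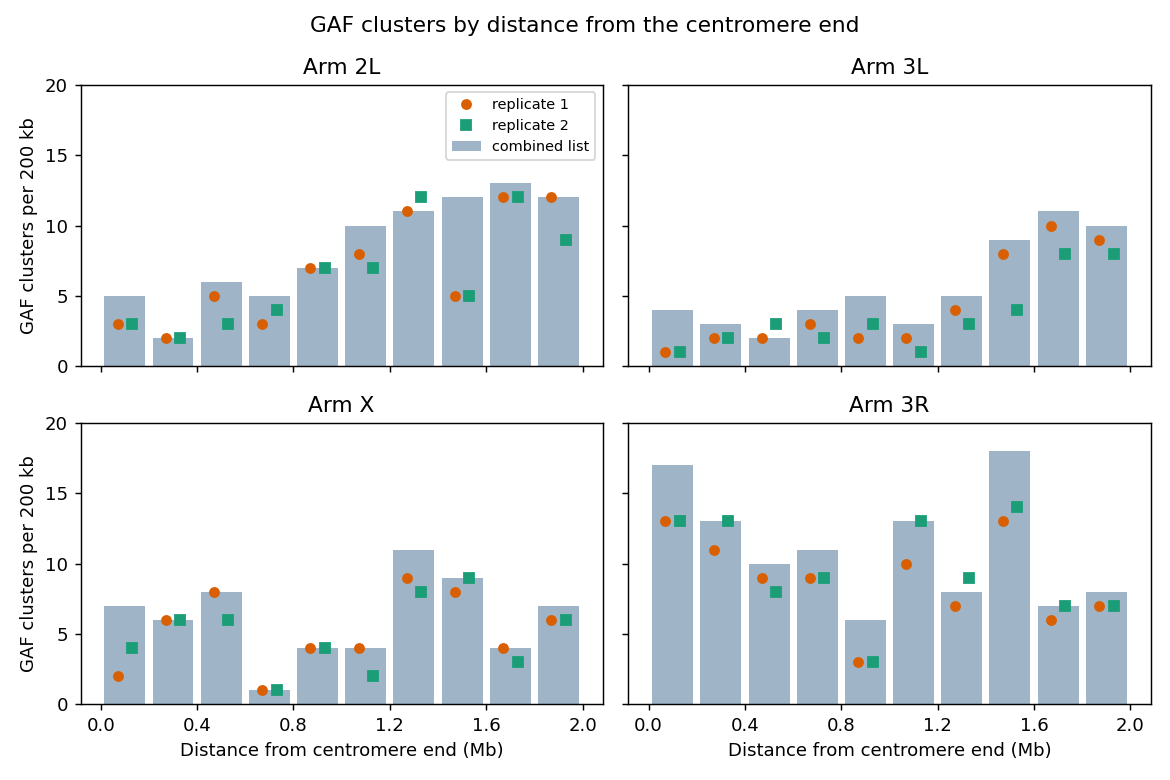
GAF clusters under 5000 bp per step of 200 kb (vertical axis) against distance from the centromere end in Mb (horizontal axis), by arm; bars are the combined list, circles replicate 1 and squares replicate 2. Counts fall towards the end on 2L and 3L, dip to 1 at 600 to 800 kb on X, and are at 17 in the innermost step of 3R. On 2L both replicates also dip to 5 at 1.4 to 1.6 Mb.

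Stretches without a cluster were longest on X and 3L. The longest stretch without a cluster in the 2 Mb of X ran for 192 kb, from 21648097 to 21839920, and no cluster of any width or list touched it. The second on X, from 21506403 to 21646095, ran for 140 kb and held 1 cluster of replicate 2 alone. On 3L the longest ran for 143 kb from 23338239 to 23481262, and the second for 119 kb from 24371170 to 24490314. On 2L the longest ran for 124 kb from 22735961 to 22859601, and the second for 117 kb from 21900739 to 22017623. These stretches on 3L and 2L were empty in all 3 lists. On 3R the longest ran for 109 kb from 914983 to 1024424, with 1 cluster of replicate 2, and the second for 96.5 kb from 1687878 to 1784412. The median distance between the midpoints of neighbouring clusters was 23.2 kb at the end of 3L, 19.3 kb on X, 13.8 kb on 2L and 11.7 kb on 3R. On the rest of these arms it was 11.6 kb on 3L, 11.0 kb on X, 13.3 kb on 2L and 12.3 kb on 3R.

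Scores at the centromere ends were lower on all 4 arms, 3R included. Scores are those of the authors on an unstated scale, so medians and differences in score units are given. For replicates 1 and 2, the median score was 0.870 and 1.00 at the ends, against 1.24 and 1.31 on the rest of the arms. The difference was -0.337 ± 0.0427 (SD, n = 2), larger than the spread between replicates and of the same sign in both (exact sign-flip permutation test, two-sided p = 0.5, the smallest that 2 replicates allow). On 3R the end had medians of 0.870 and 0.927, against 1.25 and 1.35 on the rest, a difference of -0.399 ± 0.0314 (SD, n = 2). This difference shrank to -0.0961 with a distance limit of 1 Mb and to -0.0461 with clusters below the median score dropped. The latter is a cut on the score being compared. The differences were -0.374 ± 0.0659 on 3L, -0.336 ± 0.0821 on 2L and -0.187 ± 0.118 on X (SD, n = 2 each), the last being the least separated from its spread. With the distance limit of 1 Mb they were larger on 3L (-0.706) and 2L (-0.533) and smaller on X (-0.113). In the combined list the 2L end had a median of 0.989, against 1.04 on the rest of 2L, a difference of -0.0559, smaller than in the replicates.

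The ends had a smaller share of strong clusters but about the same share of the weakest. Of the 311 combined clusters at the ends, 39.5% scored above 1.01, the median of the rest of the arms, and 4.82% scored above 3.02, a level that 10% of the rest exceeded. At the low side the ends did not stand out: 90.7% of the clusters at the ends scored above 0.160, against 90% of the rest, and 75.9% scored above 0.360, against 75%. Scores at the ends ran from 0.00750 to 4.70 with a median of 0.752, against a median of 1.01 on the rest. When clusters below the combined list's median score were dropped, the difference in median score turned to 0.0212 in the combined list. In the replicates it was -0.0827 with the same restriction, and 0.0141 on 3L alone. This restriction acts on the score that is compared, so these values concern the stronger clusters only.

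**Figure D3:**
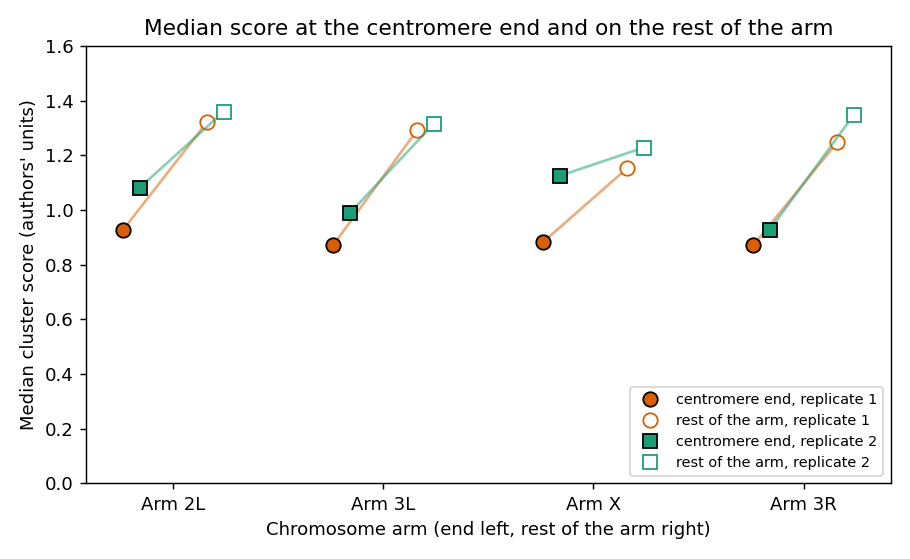
Median score of GAF clusters under 5000 bp (vertical axis, the authors' units) at the centromere end (filled, left) and on the rest of the arm (open, right), joined for each replicate (circles replicate 1, squares replicate 2). In all 8 lines the end is lower, with medians of 0.870 to 1.12 at the ends against 1.15 to 1.36 on the rest.

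Strong clusters did occur near the centromere ends. The highest score was on 3R from 911304 to 914982, 913 kb from the end, with 4.66 in replicate 1 and 4.76 in replicate 2, or 4.71 ± 0.0742 (SD, n = 2). It stood at the edge of the longest stretch without a combined cluster in the 2 Mb of that arm. The next on 3R ran from 563642 to 567688 with 4.39 and 4.08, and another from 1088717 to 1091770 with 3.00 and 3.12. The remaining named cluster of 3R began at base 2 of the arm and ended at base 2126, with 3.33 and 3.51, so the cluster closest to the centromere end of 3R was also among its 4 strongest. It abuts the start of the assembled arm, so its extent beyond that point is not known.

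On 2L a pair of strong clusters lay side by side just under 1 Mb from the end. The first ran from 22017624 to 22020672 with 4.65 in replicate 1 and 4.52 in replicate 2, and the second from 22022964 to 22025885 with 4.51 and 4.47. Their means of 4.58 ± 0.0904 and 4.49 ± 0.0240 (SD, n = 2 each) lay closer together than 0.190, the typical SD of a cluster between replicates at the ends. The next on 2L ran from 21827006 to 21829850 with 4.21 and 4.11, and from 21898130 to 21900738 with 4.02 and 3.98. The last of these and the first of the pair bordered the second longest empty stretch in the 2 Mb of the arm. The cluster nearest to the end of 2L, from 22960679 to 22962764, was weak and uneven, with 0.370 in replicate 1 and 0.670 in replicate 2.

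On 3L the 4 strongest clusters found in both replicates all lay in the outer 0.4 Mb of the window. They ran from 22814522 to 22819346 (3.92 and 4.18 in replicates 1 and 2), from 22719938 to 22722607 (3.18 and 3.33), from 22901568 to 22905966 (2.93 and 2.66) and from 22940464 to 22942987 (2.73 and 2.59). The cluster nearest to the end of 3L, from 24530532 to 24532471, was at the weak extreme, with 0.114 and 0.136. X had the lowest maximum of the 4 arms: its strongest supported cluster ran from 20563888 to 20566345 with 2.71 and 2.93, and the next from 20912845 to 20915162 with 2.75 and 2.68. Another, from 22255961 to 22259085 with 2.55 and 2.80, lay only 165 kb from the end of X, and the last ran from 21176639 to 21179037 with 2.49 and 2.53. The cluster nearest to the end of X, from 22405944 to 22407067, scored 0.373 in the combined list and had no counterpart in either replicate.

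The limits of the rule cut through similar clusters. The widest member was the 3L cluster from 22814522 to 22819346, at 4825 bp, and the narrowest excluded cluster was on X from 20923842 to 20928886, at 5045 bp and with a combined score of 3.17. In all, 10 clusters of 5000 bp or wider lay in the 2 Mb, 4 on 3R, 3 on X, 2 on 2L and 1 on 3L. All 10 had a counterpart in both replicates, and the widest, on 3L from 22826203 to 22834839, measured 8637 bp and scored 3.11 and 3.32. The farthest member lay 1991 kb from the end of 2L with a combined score of 0.419, and the nearest excluded by distance lay 2015 kb from the end of X with 0.832.

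Replicates agreed closely where they could be compared. Of the 251 clusters of replicate 1 at the ends, 222 overlapped a cluster of replicate 2 by at least 1 bp (88.4%, exact 95% interval 83.8 to 92.1%), against 92.4% on the rest of the arms (interval 91.6 to 93.2%). Of the 244 clusters of replicate 2 there, 220 overlapped one of replicate 1 (90.2%, interval 85.7 to 93.6%), against 91.5% on the rest. These intervals cover counting error only and treat clusters as independent. Those of the ends and the rest overlapped in both directions. Across the 218 clusters at the ends that matched 1 to 1 in both replicates, scores had a Spearman's rho of 0.930 and a spread between replicates of 0.190 (within-cluster SD), against 0.952 and 0.204 over 3479 clusters on the rest. These correlations are across clusters of the same libraries and are a description.

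The combined list found less support in the replicates at the ends. Of the 311 members, 218 were overlapped by a cluster of both replicates (70.1%, interval 64.7 to 75.1%), 36 by a cluster of 1 replicate (11.6%) and 57 by none (18.3%, interval 14.2 to 23.1%). On the rest of the 4 arms both replicates supported 80.1% (interval 78.9 to 81.3%) and neither 8.31% (interval 7.51 to 9.16%). Over all combined clusters under 5000 bp, 78.2% were supported by both and 9.80% by neither. The combined list is taken to come from the same libraries as the replicate lists, though how it was made is not stated. These shares describe the lists and were not tested over samples. The lowest support was at the end of 3L, where 32 of 56 were in both replicates and 15 in neither (26.8%, interval 15.8 to 40.3%), against 7.59% in neither on the rest of 3L. On 2L, X and 3R, 18.1%, 18.0% and 14.4% were in neither, against 10.0%, 8.51% and 7.51% on the rest of these arms.

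With the arms pooled, support was lowest in the last 200 kb before the centromere end, but by a narrow margin. Of the 33 members in that step, 18 were in both replicates (54.5%, the lowest of the 10 steps) and 13 were in neither. The step at 1.4 to 1.6 Mb was close to it, with 27 of 48 in both (56.25%) and 14 in neither. Between the inner and outer bands of 1 Mb the difference was small. In the innermost 1 Mb, 86 of 126 members were in both replicates (68.3%, interval 59.4 to 76.3%), and in the next 1 Mb 132 of 185 were (71.4%, interval 64.3 to 77.7%). In the last 200 kb, 2 of 5 members on 2L, 3 of 4 on 3L, 4 of 7 on X and 4 of 17 on 3R were in neither replicate. Taken singly, 2L, X and 3R each had their lowest support in another step. On 2L, 5 of 12 were in both replicates at 1.4 to 1.6 Mb, against 3 of 5 in the last 200 kb. On X, 1 of 4 were at 1 to 1.2 Mb, against 2 of 7. On 3R, 2 of 6 were at 0.8 to 1 Mb, against 12 of 17. On 3L the last 200 kb tied with the step at 0.6 to 0.8 Mb, with 1 of 4 in each. Counts per step were small.

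Members without a replicate cluster included high scores. On the rest of the 4 arms, 3 of the 366 clusters found in neither replicate scored above 1 (0.820%) and the highest reached 1.42. At the ends, 14 of 57 scored above 1 (24.6%) and the highest reached 3.23. On the sequences outside the 4 arms, 32 of 173 such clusters did (18.5%), with a highest score of 3.40. Of the 14 at the ends, 8 lay on 2L, 3 on X, 2 on 3L and 1 on 3R. Outside 2L the strongest were on 3L from 22796836 to 22797899 with 2.93, on X from 21406954 to 21408578 with 2.35, and on 3R from 578995 to 580066 with 1.58, all in the combined list alone. Members found in neither replicate were narrow, with a median width of 1286 bp against 2222 bp for those found in both. Of the 57, 30 (52.6%) measured less than the 1301 bp of the narrowest replicate cluster, and 27 did not. On the rest of the arms 221 of 366 such clusters did (60.4%). The median widths there were 1230 bp in neither replicate and 2305 bp in both, so this narrowness was not particular to the ends.

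**Figure D4:**
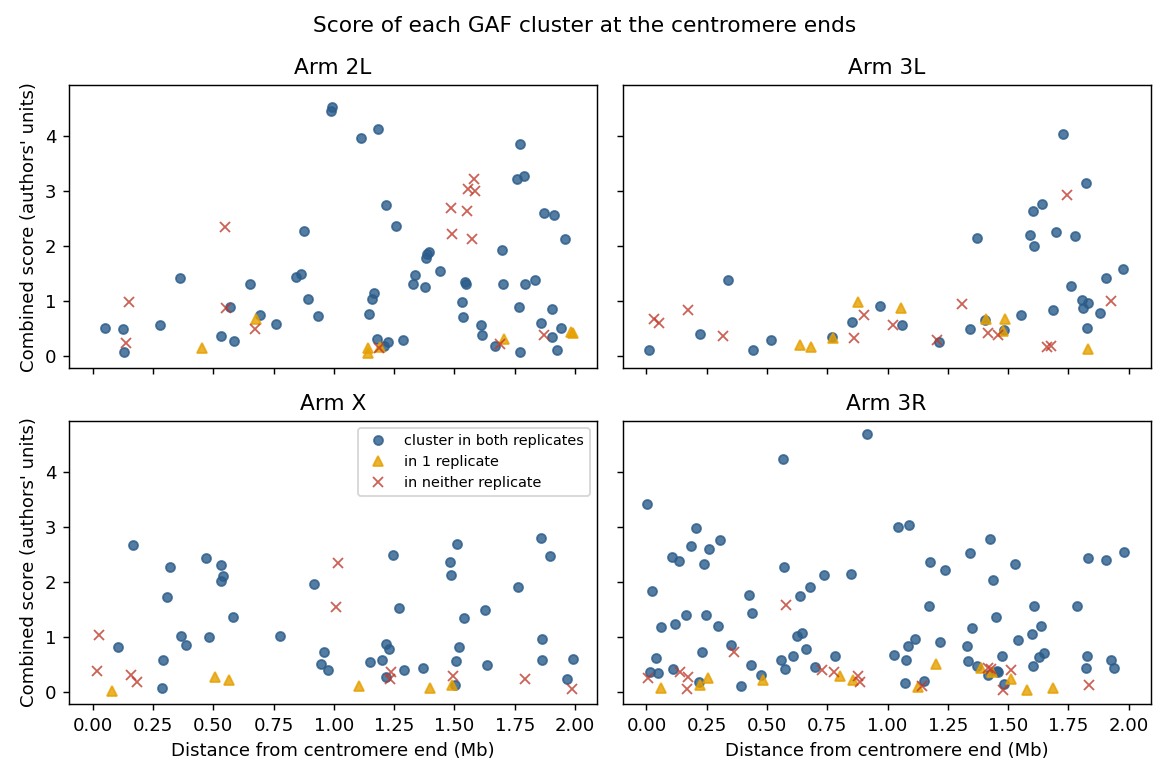
Combined score (vertical axis, the authors' units) of each of the 311 GAF clusters against distance from the centromere end in Mb (horizontal axis), by arm; circles have a cluster in both replicates, triangles in 1 and crosses in neither. Crosses lie mostly below 1, apart from 14 that reach up to 3.23, of which 7 form a tight group near 1.5 Mb on 2L.

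A run of clusters with partly regular spacing accounted for 7 of those 14. It spanned 101 kb of 2L, from 21424049 to 21524965, which is 1487 to 1586 kb from the end, and held 11 members. It was singled out after the values were seen. Midpoints of neighbouring clusters were 4994 to 5125 bp apart in 6 of its 10 intervals, with a median of 5039 bp. The other intervals measured 9912, 14220, 40694 and 4268 bp. The interval of 40694 bp parted the last 2 clusters, both in neither replicate, from the others. The extent of the run was thus a choice made on these values, and the count of 7 depends on it. Elsewhere in the 2 Mb of 2L, 9 intervals also fell between 4.5 and 5.5 kb. Of these, the intervals of 4.89 and 4.74 kb between 21303408 and 21315416 were consecutive. At the ends of 3L, X and 3R there were 1, 2 and 2 intervals between 4.5 and 5.5 kb. At the 2L end, run included, 15 of 82 intervals were of this length (18.3%), against 50 of 896 on the rest of 2L (5.58%). The 2L share counts 6 intervals of a run singled out on these same values, so it is a description only. On the rest of 3L, X and 3R the shares were 7.59%, 6.28% and 5.42%.

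The run was not uniform in its replicate support. Its 4 consecutive central clusters were present in both replicates at modest scores: the first, from 21463368 to 21465384, had 1.36 in replicate 1 and 1.21 in replicate 2, and the second, from 21468409 to 21470422, had 1.54 and 1.07. The third, from 21473455 to 21475453, had 0.823 and 0.961, and the fourth, from 21478501 to 21480506, had 1.63 and 1.08. The 5 clusters before them and the 2 after them, in order of coordinate, were in neither replicate list, yet their combined scores of 2.14 to 3.23 were above the 0.712 to 1.36 of the 4 supported ones. Their widths of 1001 to 2155 bp overlapped those of the supported clusters (1999 to 2017 bp).

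In D. melanogaster the genes of the core and linker histones lie in a tandem array near the centromere end of 2L. RefSeq's gene table for Release 6 lists 111 such genes on 2L (23 His1, 20 His2A, 23 His2B, 23 His3 and 22 His4). They neighbour each other within a block of 135 genes. That table is on another release than the clusters, so whether the run lies in this array was not tested. Without the 11 clusters of the run, 16.7% of the remaining 300 members were in neither replicate, and the combined median score of the 2L end was 0.862 rather than 0.989.

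**Figure D5:**
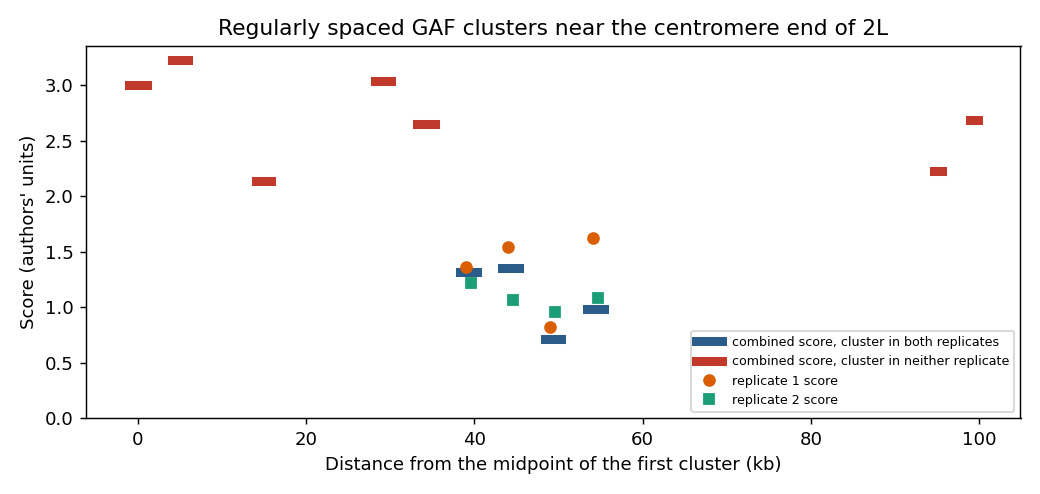
Score (vertical axis, the authors' units) of the 11 clusters of the partly regular run on 2L against distance from the midpoint of the first cluster in kb (horizontal axis); bars show each cluster's width and combined score, circles the replicate 1 score and squares the replicate 2 score. The 4 clusters with replicate scores lie together at 0.712 to 1.36 in the combined list, and the 7 without lie above 2.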

How the data were processed

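GAF ChIP-seq region lists of 2 replicates and 1 combined list were read as deposited, from embryos of 14 to 16 hours. Per the submitters' processing notes, reads were aligned with Bowtie 0.12.7. Coordinates are on FlyBase release 5, per the file headers. The region caller, its thresholds and the way the replicates were combined were not stated in the labels or headers. Each deposited region has a signed score by the authors, above 0 for enrichment and below 0 for depletion, on a scale that is not stated. Depth is unknown, since no counts are given, and the 2 inputs were not analysed here.

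The width limit of 5000 bp and distance limit of 2 Mb were applied to each list with Python 3.11.15, pandas 2.3.3, numpy 2.4.6 and scipy 1.17.1. Replicate support means an overlap of at least 1 bp. A replicate score is the mean score of the overlapping clusters of that replicate. Densities use the full length of each stretch. The members, lists and tests were chosen with earlier results of these data known. Regions were named by rule: on each arm the 4 highest combined scores found in both replicates, the member nearest to the end, the 2 longest empty stretches and the counts by step, plus the clusters nearest to the limits. The 2L run, the unsupported high scores and the telomere ends were added after the values were seen. Ends and rest were compared over the 2 replicates with an exact sign-flip permutation test, and shares carry exact (Clopper-Pearson) 95% binomial intervals for counting error only. Alternatives were no width limit, a distance limit of 1 Mb, scores at or above the list's median, each arm or replicate left out, a reciprocal overlap of 50%, steps of 500 kb, and, added later, clusters of both replicates alone and the ends without the run. The counting was tested on simulated data.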

Additional observations from a re-analysis of the deposited data

Results flagged for a closer look

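The density difference on 3R ran against that of the other arms. In both replicates the centromere end of 3R was denser than the rest of 3R, by 0.804 and 4.34 clusters per Mb in replicates 1 and 2 (mean 2.57), while 2L, 3L and X were sparser at the end in both. The difference between the arms was not tested.

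Regions called depleted are not used in the comparisons above. In the combined list 20 of them lay in the 4 centromere ends, 6 on 2L, 3 on 3L, 6 on X and 5 on 3R, which is 2.50 per Mb at the ends against 1.61 per Mb on the rest of the arms. Replicate 1 had 1 such region at the ends and replicate 2 had 0. Over the whole of the 4 arms the combined list had 165, and replicates 1 and 2 had 9 and 6. Their scarcity in the replicates was therefore not particular to the ends. The scores of the 20 combined regions at the ends ran from -0.180 to -0.000553, and 12 of the 20 overlapped a cluster that 1 replicate calls enriched. The same share for the rest of the arms is not given here.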

How the results depend on the processing

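The density difference stayed negative under every alternative for the 4 arms together. Its replicate mean of -13.1 clusters per Mb was -15.0 with no width limit, -19.6 with a limit of 1 Mb and -9.35 with scores at or above the median. Without 2L, 3L, X or 3R it was -15.7, -9.01, -9.33 or -18.3. In the combined list, -10.1 per Mb became -12.2 with no width limit, -17.4 within 1 Mb, -9.26 above the median score, -12.0 with clusters of both replicates alone and -11.5 without the 2L run. It was -12.9, -6.48, -5.01 or -16.2 without 2L, 3L, X or 3R. Leaving out 1 replicate gave -13.7 to -12.5 per Mb. On 3R alone the difference reversed, from a mean of 2.57 to -3.35 per Mb, with scores at or above the median. With the limit of 1 Mb the replicate mean was -18.6 on 2L, -33.6 on 3L, -28.4 on X and 1.96 on 3R.

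The score difference of -0.337 in the replicates was -0.393 with no width limit and -0.0827 above the median score. It was -0.287, -0.394 or -0.278 without 3L, X or 3R, and -0.367 to -0.306 with 1 replicate left out. In the combined list, -0.259 became -0.334 with no width limit and 0.0212, a reversal, above the median score. It was -0.382 with clusters of both replicates alone, and -0.328, -0.209, -0.310 or -0.169 without 2L, 3L, X or 3R. On 3L alone the replicate mean reversed to 0.0141 above the median score. On 3R alone the replicate mean of -0.399 was -0.0961 within 1 Mb and -0.0461 above the median score. The cut at the median acts on the score that is compared, so its values concern the stronger clusters only. Within 1 Mb the replicate mean was -0.706 on 3L, -0.533 on 2L and -0.113 on X. The causes were not tested.

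Support by both replicates was 89.7% among members at or above the median score, and 68.0 to 72.9% under the other alternatives, a reciprocal overlap of 50% included. The share above the median score is not given for the rest of the arms. Supported clusters scored higher there as well, with a median of 1.40 in both replicates against 0.298 in neither. Over 2L, 3L and X together, the rank correlation of combined count with distance was 0.841 in steps of 200 kb and 1 in 4 steps of 500 kb; with 3R included it was 0.675 and 0.800. Ends and rest were compared within each replicate, so that comparison is paired by construction. For ChIP against input, no paired analysis was possible because neither input was analysed here. Unknown depth and alignability limit what a missing cluster means.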

Other observations

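Many scores were identical or a whole number apart. Among the 6474 enriched clusters of the combined list, 515 (7.95%) had a score that differed by a whole number from that of another cluster of the list, 0 included, to 6 decimals. An identical score was shared by 353 (5.45%). In the full lists of replicates 1 and 2 the whole-number share was higher, at 12.8% and 13.7%. Among combined-list members found in neither replicate, 23 of 57 differed by a whole number (40.4%), against 71 of 366 such clusters on the rest of the arms (19.4%). Of the 14 unsupported members that scored above 1, 13 did, as did all 7 unsupported clusters of the run on 2L. An identical score was found for 7 of these 14. The clusters of 2L from 21429127 to 21431124 and from 21519684 to 21520710 scored 3.23063 and 2.23063. A cluster on 2L from 22462532 to 22463532 and one on X from 21406954 to 21408578 both scored 2.34611. Members found in both replicates differed by a whole number in 16 of 218 cases (7.34%), against 5.55% on the rest. The scale of the score is not stated, so what a step of 1 stands for is not known. These shares were looked at only after the repeated values had been seen, and no test was run.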
